A study of Mus musculus with 21 samples.

Results

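The 33 genes described here are neutrophil and myeloid cell genes of the mouse, taken by name from the table of Nes-low mesenchymal cells, and all 33 were found among its 26852 genes. They were chosen as known genes of granulocytes and other leukocytes, with earlier results of these data known. Their counts beside shares of all tested genes are therefore not independent of these data. By role, 13 encode granule or secreted proteins, 2 encode the cytosolic S100 proteins, 2 encode transcription factors, 5 encode surface receptors and integrins, 3 encode NADPH oxidase subunits, 2 encode signalling adaptors and 6 are general leukocyte genes. A gene was tested when its mean over all libraries reached 10 normalized counts (3.32 on the log2 scale), which held for 12976 genes and for 25 of the 33 members.

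The study asked how human acute myeloid leukemia (AML) changes the mesenchymal cells of the bone marrow around it. RNA was sequenced from Nes-low cells, the bone marrow mesenchymal cells with low fluorescence from a Nestin reporter, sorted from immunodeficient Nestin+ NSG mice that carried the AML line HL60 or ML1. Before the sort, hematopoietic cells of mouse and human were depleted with magnetic beads. Cells left after depletion were also stained for CD45 and for the red cell antigen Ter119. The extract protocol of the labels names a sort of CD31+ endothelial cells, while the samples are labelled as Nes-low mesenchymal cells. The 21 libraries fall into 7 groups of 3, each library with its own number.

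The ctrl group is 3 unengrafted Nestin+ NSG mice with no cherry marker. The other groups are Nestin+ NSG mice, unconditioned and aged 8 to 12 weeks at transplantation, that received HL60 or ML1 cells. The AML cells released a cherry-coloured protein that enters neighbouring cells, so at the early time point Nes-low cells were split into early ch+ (cherry positive) and early ch- (cherry negative). The study describes both fractions as taken from the same marrow, but the labels pair no libraries, so the tests treat all libraries as independent. Late cells, from late leukemia, were not split by the marker. HL60 and ML1 are established human lines, each standing for a single leukemia, and NSG mice lack lymphocytes but keep neutrophils and other myeloid cells of their own. The treatment field of the 3 ML1 late libraries reads unengrafted while their titles and time point say late, and they are used here as late. The labels give no date of sorting or sequencing, so a batch and a stage cannot be told apart, and the values used here are normalized and give no read total per library.

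Neutrophils mature in the bone marrow from promyelocytes, which make the proteases and myeloperoxidase of primary granules, to later stages that make the antimicrobial proteins of secondary and tertiary granules. Mature cells carry S100a8 and S100a9 protein in their cytosol, migrate through chemokine receptors and integrins, and kill microbes with the NADPH oxidase. Mesenchymal cells are not a usual source of granule proteins, whereas several general leukocyte genes of the list, among them Lsp1 and Srgn, are also expressed outside blood cells.

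Values are regularized log2 normalized counts, a scale on which the values of genes with few reads are drawn together, so that libraries with few reads share a near-constant lowest value and fold changes of low genes are understated. In bulk RNA, fewer cells of a type and less RNA per cell cannot be told apart. A member is called when its limma test has an adjusted p below 0.1 over all tested genes, and all comparisons against ctrl share the same 3 ctrl libraries.

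The S100 pair and most granule genes were low in most ctrl libraries, higher in the early libraries of both marker fractions and both lines, and low again late. In early ch+ against ctrl, 16 of 33 members were called higher and 0 lower, where 3.41% of all tested genes were called higher and 2.75% lower. In early ch- against ctrl, 15 of 33 were called higher and 0 lower, beside 1.13% and 0.786% of all tested genes. The median difference over the 33 members was 1.12 in early ch+ and 1.53 in early ch-, against 0.01 over all tested genes in each. Limma gave 21 members in early ch+ and 19 in early ch- at an unadjusted p below 0.05, as it did for 16.8% and 11.9% of all tested genes. Of the 25 tested members, 13 would also have passed the filter on the ctrl and late libraries alone. The other 12 were S100a8, Elane, Camp, Ltf, Mmp8, Chil3, Retnlg, Csf3r, Cxcr2, Itgam, Itgb2 and Ptprc. These 12 passed through their early values and had to differ, so their calls cannot be read against these percentages. Their p-values for early cells against ctrl or late cells are likewise no test of the early rise. Among the 13, 5 were called higher in early ch+ and 5 in early ch- (Mpo, Ngp, Lcn2, Lyz2 and S100a9 in each), and among the 12 it was 11 and 10. With no filter on low values 15 members were called in early ch+ and 11 in early ch-, where 0.998% and 0.35% of all 26852 genes were called higher. Calls then lost were Lyz2 (adjusted p = 0.237) and Itgb2 (0.115) in early ch+, and Lyz2 (0.191), Retnlg (0.158), Csf3r (0.226), Cxcr2 (0.249) and Itgam (0.12) in early ch-.

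**Figure D1:**
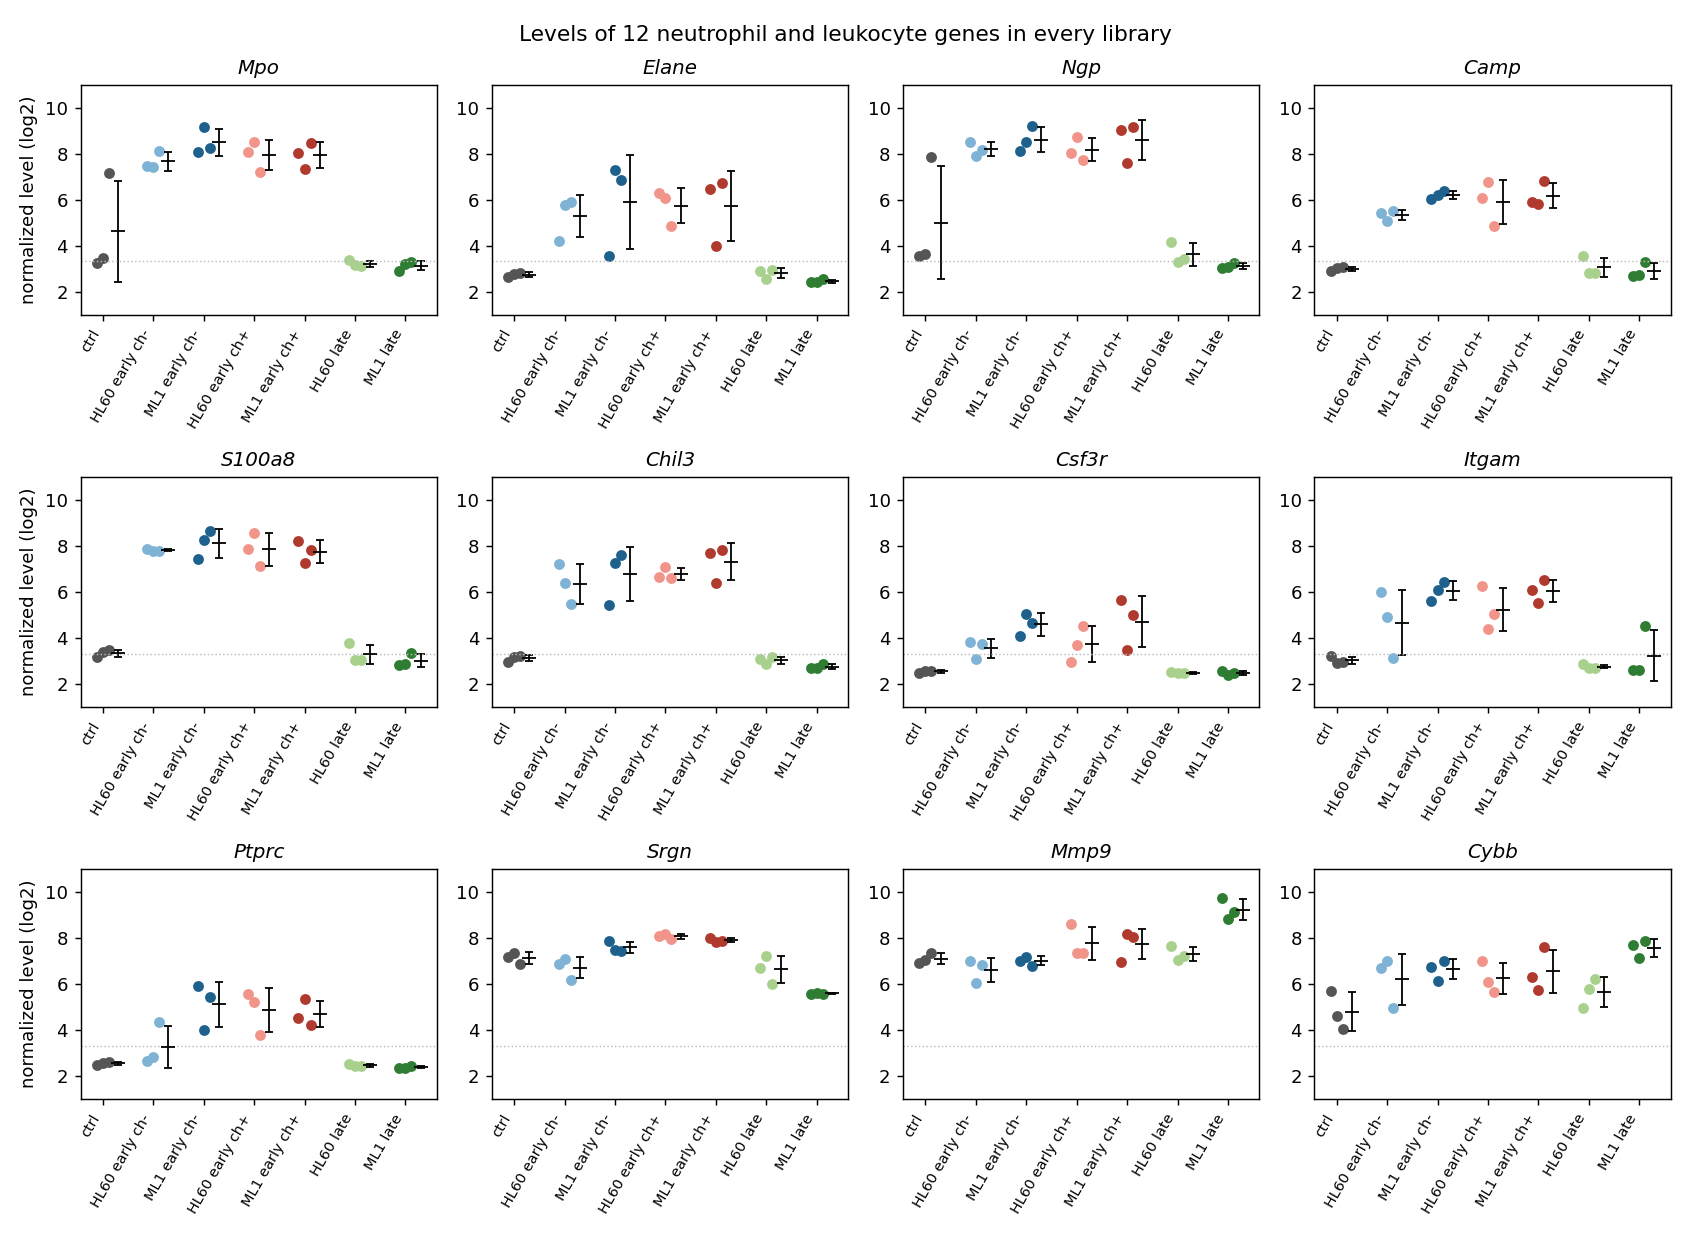
Regularized log2 normalized count in each of the 21 libraries (vertical axis) by group (horizontal axis), for 12 members, with each point a library, each bar the mean ± SD of the 3 libraries and the dotted line the filter. S100a8 lies between 7.14 and 8.67 in the 12 early libraries and between 2.83 and 3.76 in ctrl and late.

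S100a8 and S100a9 encode the paired subunits of calprotectin, an antimicrobial protein that fills the neutrophil cytosol. S100a8 measured 3.17, 3.40 and 3.47 in the ctrl libraries 373, 374 and 375. Its early ch- libraries ran from 7.42 over a median of 7.83 to 8.67, and its early ch+ libraries from 7.14 over 7.86 to 8.56. Late libraries ran from 2.83 over 3.05 to 3.76. All 12 early libraries were above all ctrl and late libraries, while ctrl and late overlapped. S100a8 was 22.1-fold higher in early ch+ than in ctrl (log2 difference 4.47, SE 0.34, adjusted p = 2.75e-10, above ctrl in 6 of 6) and 24.7-fold higher in early ch- (4.63, SE 0.34, adjusted p = 1.53e-10, 6 of 6). S100a8 passed the filter only through its early values (mean 3.21 over ctrl and late, filter 3.32) and had to differ. Its p-values therefore cannot be read as a test of the early rise. Late against ctrl gave -0.20 (adjusted p = 0.775).

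S100a9 measured 4.19, 3.72 and 4.50 in ctrl. Its lowest, median and highest values were 8.41, 8.72 and 9.61 in early ch-, 8.04, 9.04 and 9.70 in early ch+, and 3.11, 3.56 and 4.34 late. The early libraries again stood apart from every other library. S100a9 was 27.8-fold higher in early ch+ than in ctrl (4.80, SE 0.36, adjusted p = 2.75e-10, 6 of 6 libraries) and 25.6-fold higher in early ch- (4.68, SE 0.36, adjusted p = 4.94e-10, 6 of 6). It fell by 5.28 from early ch+ to late (adjusted p = 1.02e-13, all 6 late libraries below all early ch+ libraries). The pair lies on chromosome 3 of mm10, S100a8 at chr3:90668978-90670035 on the plus strand and S100a9 at chr3:90692632-90695721 on the minus strand, with 22.6 kb and 0 protein-coding genes between them.

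Of the primary granule genes, made at the promyelocyte stage, Mpo and Elane were higher in the early groups, while Prtn3 was not called and Ctsg was not tested. Mpo encodes myeloperoxidase, which makes hypochlorous acid. It measured 3.26, 3.48 and 7.16 in ctrl, so that ctrl 375 reached nearly the early range. Early ch- ran from 7.41 over 8.11 to 9.16, early ch+ from 7.23 over 8.08 to 8.53, and late from 2.92 over 3.17 to 3.38. Every early library lay above every ctrl library, by a narrow margin for 375. Mpo was 10.9-fold higher in early ch- (3.45, SE 0.53, adjusted p = 0.000231, 6 of 6 libraries above ctrl). In early ch+ the difference was 3.32 (SE 0.53, adjusted p = 0.000178, 6 of 6), and without ctrl 375 the differences were 4.59 in early ch+ (adjusted p = 1.19e-08) and 4.72 in early ch- (adjusted p = 6.31e-09).

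Elane, neutrophil elastase, measured 2.63, 2.77 and 2.82 in ctrl, with ctrl 375 as low as the others. HL60 early ch- gave 4.23, 5.77 and 5.89, and ML1 early ch- gave 3.56, 7.31 and 6.87. HL60 early ch+ gave 6.30, 6.07 and 4.87, and ML1 early ch+ gave 6.49, 3.99 and 6.74. The early libraries were all above ctrl but spread widely, with the lowest of them in ML1 early ch- 543. Elane was 8.02-fold higher in early ch+ than in ctrl (3.00, SE 0.60, adjusted p = 0.00198, 6 of 6) and 7.28-fold higher in early ch- (2.86, SE 0.60, adjusted p = 0.00844, 6 of 6). Late libraries ran from 2.41 to 2.97, within the ctrl range or just outside it.

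Prtn3, proteinase 3, is the neighbour of Elane on chromosome 10 (Prtn3 at chr10:79874476-79883174, Elane at chr10:79886247-79888215, both on the plus strand, 3.1 kb apart). It measured 3.46, 2.96 and 2.98 in ctrl, 3.02 to 5.23 in early ch-, 2.91 to 5.52 in early ch+ and 3.31 to 4.48 late. The ranges overlapped in all 4 stages. Its differences were 1.12 in early ch+ (adjusted p = 0.195) and 0.97 in early ch- (adjusted p = 0.395), and the first was called without ML1 early ch+ 539 (1.39, adjusted p = 0.0763) and with HL60 and ctrl alone (1.37, 0.0931). Ctsg, cathepsin G, stayed under the filter: it measured 2.02 to 2.07 in ctrl, 2.24 to 3.99 in early ch-, 2.01 to 3.93 in early ch+ and 1.98 to 2.04 late. Its highest values came from ML1 libraries, ch- 543 and ch+ 538.

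Secondary and tertiary granule and secreted proteins are made later in maturation, and 7 of these 9 members were called higher in early ch+ (3.41% of all tested genes) and in early ch- (1.13%). Of the 7, 4 (Camp, Ltf, Chil3 and Retnlg) passed the filter only through their early values and had to differ; of the 4 members that pass without them, 3 were called. Ngp, neutrophilic granule protein, measured 3.56, 3.63 and 7.85 in ctrl. It ran from 7.91 over 8.34 to 9.22 in early ch-, from 7.62 over 8.39 to 9.19 in early ch+ and from 3.05 over 3.28 to 4.19 late. Ctrl 375 lay inside the early ch+ range, and the other ctrl libraries lay with late. Ngp was higher by 3.39 in early ch+ (SE 0.58, adjusted p = 0.000371) and by 3.40 in early ch- (SE 0.58, adjusted p = 0.00088), with 6 of 6 early ch- libraries above ctrl. Without ctrl 375 the differences were 4.80 and 4.82 (adjusted p = 7.73e-09 and 6.31e-09).

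Camp, the precursor of the cathelicidin peptide, measured 2.89, 3.03 and 3.08 in ctrl. It ran from 5.08 over 5.77 to 6.36 in early ch-, from 4.86 over 5.98 to 6.81 in early ch+, and from 2.70 over 2.82 to 3.54 late. Early libraries were separate from ctrl and late, and ctrl 375 was low here. Camp was 8.24-fold higher in early ch+ (3.04, SE 0.38, adjusted p = 4.90e-06, 6 of 6 libraries) and 6.81-fold higher in early ch- (2.77, SE 0.38, adjusted p = 4.63e-05, 6 of 6).

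Chil3, a secreted chitinase-like protein, measured 2.97, 3.16 and 3.22 in ctrl, 5.43 to 7.62 with a median of 6.80 in early ch-, 6.41 to 7.84 with a median of 6.87 in early ch+, and 2.68 to 3.16 late. No early library overlapped ctrl or late. Chil3 was 15.3-fold higher in early ch+ (3.94, SE 0.42, adjusted p = 4.02e-07, 6 of 6) and 10.9-fold higher in early ch- (3.45, SE 0.42, adjusted p = 7.93e-06, 6 of 6). Part of its sequence is shared with related chitinase-like genes, and reads that fit several genes were divided among them by the authors' software.

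Lcn2, the iron-siderophore binding protein lipocalin 2, measured 3.41, 3.61 and 5.77 in ctrl, 6.69 to 9.11 in early ch-, 7.14 to 8.26 in early ch+ and 3.44 to 4.97 late. It was 11.2-fold higher in early ch+ (3.48, SE 0.48, adjusted p = 2.21e-05, 6 of 6) and 10.6-fold higher in early ch- (3.40, SE 0.48, adjusted p = 7.36e-05, 6 of 6). Ltf, the iron-binding lactoferrin, measured 3.64, 3.28 and 4.69 in ctrl, a median of 6.41 in early ch-, 5.33 to 7.34 in early ch+ and 2.90 to 3.20 late. Both genes had their highest ctrl value in 375, still below every early library. Without ctrl 375, Lcn2 was higher by 4.24 in early ch+ (adjusted p = 1.63e-06) and by 4.16 in early ch- (adjusted p = 3.31e-06). Ltf was higher by 2.64 in early ch+ (adjusted p = 5.67e-05, 6 of 6) and by 2.65 in early ch- (adjusted p = 0.00011, 6 of 6).

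Retnlg, a resistin-like secreted protein of granulocytes, measured 2.75 to 3.01 in ctrl, 2.77 to 5.76 in early ch-, 3.39 to 5.78 in early ch+ and 2.63 to 2.79 late. A single early library, HL60 early ch- 529, stayed at the ctrl level. Retnlg was higher by 2.06 in early ch+ (SE 0.45, adjusted p = 0.00525, 6 of 6). In early ch- it was higher by 1.75 (adjusted p = 0.0481), a call lost without ctrl 373 (1.69, adjusted p = 0.153), ctrl 374 (1.82, 0.142), ctrl 375 (1.75, 0.156) or ML1 early ch- 546 (1.53, 0.104), or with HL60 and ctrl alone (1.29, 0.265).

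Lyz2, lysozyme of neutrophils and macrophages, was well above the filter in every library. It measured 8.65, 7.61 and 7.54 in ctrl, 8.45 to 9.78 in early ch-, 8.45 to 9.35 in early ch+ and 5.95 to 7.66 late. Early and ctrl ranges overlapped through ctrl 373, and late libraries ran lower than early ones while overlapping ctrl. Lyz2 was 2.42-fold higher in early ch- (1.27, SE 0.33, adjusted p = 0.0474), a call lost without ctrl 374 (1.11, adjusted p = 0.249), ctrl 375 (1.08, 0.242) or ML1 early ch- 546 (1.16, 0.103). In early ch+ it was higher by 1.03 (adjusted p = 0.0769), a call lost without ctrl 374 (0.86, 0.273), ctrl 375 (0.83, 0.303), HL60 early ch+ 524 (0.96, 0.134), ML1 early ch+ 538 (0.95, 0.139) or ML1 early ch+ 541 (0.95, 0.132). Both calls were also lost without the trend option (adjusted p = 0.141 in early ch+, 0.112 in early ch-), with sample weights (0.176, 0.122) and with HL60 and ctrl alone (0.192, 0.185). Lyz2 is closely related in sequence to Lyz1.

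Mmp8, neutrophil collagenase, measured 3.53, 3.82 and 4.32 in ctrl, 4.42 to 5.51 in early ch-, 3.77 to 5.72 in early ch+ and 2.77 to 3.02 late. Its early differences of 1.15 (ch-, adjusted p = 0.134) and 0.93 (ch+, adjusted p = 0.163) were not called, although all 6 early ch- libraries were above ctrl. Without ML1 early ch+ 539 they were 1.15 (adjusted p = 0.087) and 1.14 (0.0598), and without HL60 early ch- 529 the early ch- difference was 1.27 (0.0974). With ML1 and ctrl alone it was 1.54 (0.0963).

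Mmp9, gelatinase B, is stored in tertiary granules and is also made by osteoclasts and other cells. It measured 6.92, 7.05 and 7.36 in ctrl. HL60 and ML1 early ch- ranged from 6.03 to 7.20, and early ch+ from 6.99 to 8.60. HL60 late gave 7.66, 7.04 and 7.25, and ML1 late gave 9.73, 8.83 and 9.13. Mmp9 was above the filter in every library and highest in the 3 ML1 late libraries, which overlapped no other group.

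Surface receptors and integrins were called higher in early cells for 4 of 5 members in each marker fraction (3.41% of all tested genes in early ch+, 1.13% in early ch-). All 4 (Csf3r, Cxcr2, Itgam and Itgb2) passed the filter only through their early values and had to differ, so their count cannot be read against these percentages. Csf3r is the receptor for the granulocyte growth factor G-CSF. It measured 2.49 to 2.58 in ctrl, 3.09 to 5.05 in early ch-, 2.97 to 5.66 in early ch+ and 2.41 to 2.57 late, with no overlap of early and other libraries. It was higher by 1.68 in early ch+ (SE 0.43, adjusted p = 0.02, 6 of 6). In early ch- it was higher by 1.53 (adjusted p = 0.077, 6 of 6), a call lost without ctrl 373 (1.50, 0.195), 374 (1.54, 0.22) or 375 (1.55, 0.192) and without ML1 early ch- 543 (1.53, 0.11), 544 (1.33, 0.159) or 546 (1.42, 0.146). The early ch- call was also lost with quantile normalization (1.43, 0.116), with equal library totals (1.45, 0.114), without the trend option (1.53, 0.116) and with sample weights (1.55, 0.122).

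Cxcr2, the receptor for neutrophil-attracting chemokines, measured 2.45 to 2.56 in ctrl, 2.93 to 5.05 in early ch-, 2.87 to 5.60 in early ch+ and 2.35 to 2.49 late. All early libraries were above ctrl. It was higher by 2.10 in early ch+ (SE 0.46, adjusted p = 0.00486, 6 of 6). In early ch- it was higher by 1.60 (adjusted p = 0.085, 6 of 6), a call lost without ctrl 373 (1.57, 0.215), 374 (1.61, 0.234) or 375 (1.62, 0.205), HL60 early ch- 527 (1.51, 0.146) or 529 (1.43, 0.17), ML1 early ch- 546 (1.41, 0.17), HL60 late 399 (1.60, 0.101) or ML1 late 581 (1.60, 0.101), with quantile normalization (1.50, 0.123), with equal library totals (1.52, 0.114), without the trend option (1.60, 0.135), with sample weights (1.74, 0.108) and with ML1 and ctrl alone (1.26, 0.225).

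Itgam, the alpha chain of the integrin Mac-1, measured 3.21, 2.91 and 2.96 in ctrl. HL60 early ch- gave 5.98, 4.90 and 3.14 and ML1 early ch- gave 5.62, 6.10 and 6.45, while early ch+ ran from 4.40 to 6.52. Late libraries ran from 2.60 to 4.50. HL60 early ch- 529 was as low as ctrl, and ML1 late 583 was higher than the other late libraries. Itgam was higher by 2.62 in early ch+ (SE 0.54, adjusted p = 0.00328, 6 of 6) and by 2.34 in early ch- (adjusted p = 0.0253, 5 of 6 above every ctrl library), the latter not called without ctrl 374 (2.28, 0.115) or ctrl 375 (2.30, 0.11) or with HL60 and ctrl alone (1.65, 0.217).

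Itgb2, the beta chain that pairs with Itgam, measured 2.54 to 2.61 in ctrl, 3.61 to 4.84 in early ch-, 2.86 to 5.08 in early ch+ and 2.48 to 2.57 late. Early libraries were all above ctrl and late. It was higher by 1.57 in early ch- (SE 0.37, adjusted p = 0.0253, 6 of 6) and by 1.26 in early ch+ (adjusted p = 0.0469, 6 of 6), the latter not called without ctrl 373 (1.24, 0.137), 374 (1.26, 0.127) or 375 (1.27, 0.118) or with only these 2 stages (1.26, 0.104). Ly6g, the neutrophil surface antigen used for sorting mouse neutrophils, was under the filter. It measured 1.69 to 1.71 in ctrl, 1.72 to 2.24 in early ch-, 2.03 to 3.55 in early ch+ and 1.67 to 1.90 late. All early ch+ libraries were above ctrl and late. With no filter on low values Ly6g was called higher in early ch+ than in ctrl (0.96, adjusted p = 0.055, background 0.998% of 26852 genes) and than in early ch- (0.80, adjusted p = 0.0428, background 1.52%). Ly6g has close relatives in the Ly6 family.

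The transcription factors Cebpe, needed for secondary granule genes, and Spi1, the myeloid factor PU.1, were both under the filter. Cebpe measured 0.30 in all ctrl libraries and at most 1.04 elsewhere, in ML1 early ch- 544. Spi1 measured 1.94 to 1.97 in ctrl, 1.94 to 3.01 in early ch-, 2.10 to 3.69 in early ch+ and 1.91 to 1.95 late. All early ch+ libraries were above ctrl and late for Spi1, while early ch- overlapped both.

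Of the NADPH oxidase subunits, Cybb, the catalytic membrane subunit, and Ncf1, a cytosolic organizer, were measured well above the filter already in ctrl. Cybb measured 5.72, 4.62 and 4.06 in ctrl, 4.94 to 7.01 in early ch-, 5.67 to 7.60 in early ch+ and 4.97 to 7.86 late. The early ranges overlapped ctrl. Its early ch+ difference was 1.60 (SE 0.54, adjusted p = 0.102), just outside the threshold, and it passed without ctrl 373 (2.06, 0.0675), HL60 early ch- 529 (1.60, 0.0744), HL60 early ch+ 525 (1.75, 0.0841), ML1 early ch+ 539 (1.74, 0.092), HL60 late 397 (1.60, 0.0654) or 398 (1.60, 0.0948), or ML1 late 581 (1.60, 0.0941) or 583 (1.60, 0.0858). The same difference was called with 7 groups (0.0308), with only these 2 stages (0.0472), with a mean of at least 50 normalized counts (0.0972) and with equal library totals (1.68, 0.0936). In early ch- the difference of 1.63 was not called (adjusted p = 0.173), but it was with 7 groups (0.0605) and without HL60 early ch- 529 (1.93, 0.0789). By line, Cybb was called higher in ML1 early ch+ (1.75, SE 0.52, adjusted p = 0.0491, 3 of 3 above ctrl) and ML1 early ch- (1.84, SE 0.52, adjusted p = 0.0758, 3 of 3), and in HL60 it was not (1.45, adjusted p = 0.14, and 1.41, 0.266). Ncf1 measured 8.18, 7.31 and 7.95 in ctrl, 7.31 to 8.22 in early ch- and 6.99 to 7.94 in early ch+, with no called early difference from ctrl. Ncf4, another cytosolic subunit, was under the filter at 1.50 to 1.52 in ctrl, 1.53 to 2.23 in early ch-, 1.50 to 2.36 in early ch+ and 1.49 to 1.63 late.

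Fcer1g and Tyrobp are signalling adaptors of Fc and related receptors. Fcer1g measured 5.25, 5.62 and 5.52 in ctrl, 5.25 to 6.37 in early ch-, 4.81 to 5.61 in early ch+ and 5.06 to 5.79 late. All stages overlapped and it was called in none of the 17 comparisons of the values as deposited. Tyrobp was under the filter at 1.97 to 2.01 in ctrl, 2.03 to 3.96 in early ch-, 1.99 to 3.55 in early ch+ and 1.94 to 1.98 late, and with no filter it was not called against ctrl in early ch+ (0.78, adjusted p = 0.474) or early ch- (0.85, adjusted p = 0.568).

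General leukocyte genes divided into members near their lowest value in ctrl and members expressed throughout. Ptprc, the leukocyte surface phosphatase CD45, measured 2.49, 2.58 and 2.61 in ctrl. HL60 early ch- gave 2.67, 2.84 and 4.34, ML1 early ch- gave 5.92, 4.02 and 5.44, and early ch+ ran from 3.81 to 5.58. All early libraries were above ctrl, those of HL60 early ch- 527 and 528 only slightly. Ptprc was higher by 2.23 in early ch+ (SE 0.50, adjusted p = 0.00629, 6 of 6), and its early ch- difference of 1.65 (adjusted p = 0.12) was not called, but it was with 7 groups (1.65, 0.0323) and without HL60 early ch- 527 (1.95, 0.0378) or 528 (1.92, 0.0429). Laptm5, a lysosomal protein of blood cells, measured 2.42 to 2.48 in ctrl, 2.67 to 4.87 in early ch-, 2.95 to 4.19 in early ch+ and a median of 2.40 late, and Coro1a, an actin regulator of leukocytes, measured 2.30 to 2.36, 3.14 to 4.95, 2.33 to 4.38 and 2.24 to 2.47 in the same order. Both were under the filter, and with no filter Coro1a was called higher in early ch- (1.47, adjusted p = 0.0977, background 0.35%).

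Srgn, the core protein of granule proteoglycans, Lsp1, an actin-binding leukocyte protein, and Plek, a protein kinase C substrate, were present in every ctrl library. Srgn measured 7.16, 7.37 and 6.88 in ctrl, 6.19 to 7.87 in early ch- and 7.83 to 8.17 in early ch+. Lsp1 measured 8.12, 6.63 and 7.46 in ctrl, 6.26 to 8.19 in early ch- and 5.43 to 7.36 in early ch+. Plek measured 6.17, 5.52 and 4.81 in ctrl, 5.07 to 6.53 in early ch- and 5.47 to 6.99 in early ch+. Their early and ctrl ranges overlapped except for Srgn in early ch+, and with both lines pooled by stage none of these 3 was called against ctrl at the early time point. Srgn in early ch+, higher by 0.86, was called with 7 groups (adjusted p = 0.0477), with only these 2 stages (0.039) and with equal library totals (0.94, 0.0876), and in HL60 early ch+ (0.95, SE 0.30, adjusted p = 0.0815, 3 of 3 above ctrl).

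The granule class and the general leukocyte class thus had different counts in the same comparisons. Of 13 granule members, 9 were called higher in early ch+ (3.41% of all tested genes) and 9 in early ch- (1.13%), with medians of 2.64 and 2.65. In each, 5 of the 9 (Elane, Camp, Ltf, Chil3 and Retnlg) passed the filter only through their early values and had to differ, and of the 6 granule members that pass without them 4 were called. Of 6 general leukocyte members, 1 (Ptprc) was called higher in early ch+ and 0 in early ch- by limma (1 at an unadjusted p below 0.05), with medians of 0.94 and 0.93. Ptprc too passed only through its early values, and of the 3 general leukocyte members that pass without them limma called 0 in each fraction (2 in early ch+ and 0 in early ch- at an unadjusted p below 0.05). By line, the granule members called were 8 in HL60 early ch+ (2.87% of all tested genes), 9 in ML1 early ch+ (3.47%), 7 in HL60 early ch- (0.894%) and 10 in ML1 early ch- (1.42%), of which 5, 5, 4 and 6 passed only through their early values; of the 6 that pass without them, 3, 4, 3 and 4 were called. The general leukocyte members called were 2 in HL60 early ch+ (Ptprc and Srgn), 1 in ML1 early ch+ (Ptprc), 1 in ML1 early ch- (Ptprc, 2.57, adjusted p = 0.00259) and, by limma, 0 in HL60 early ch- (0 at an unadjusted p below 0.05). The difference between the classes was not tested. The mean of the granule members per library was 4.13 ± 0.54 in ctrl (SD, n = 3), 5.96 ± 0.17 in HL60 early ch-, 6.54 ± 0.47 in ML1 early ch-, 6.32 ± 0.48 in HL60 early ch+, 6.44 ± 0.63 in ML1 early ch+, 3.76 ± 0.19 in HL60 late and 3.77 ± 0.09 in ML1 late (n = 3 each). The summed normalized count of these members ran from 431 to 870 in ctrl, 314 to 450 in HL60 late and 688 to 1006 in ML1 late. The ML1 late sum is mostly Mmp9 (8.83 to 9.73).

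**Figure D2:**
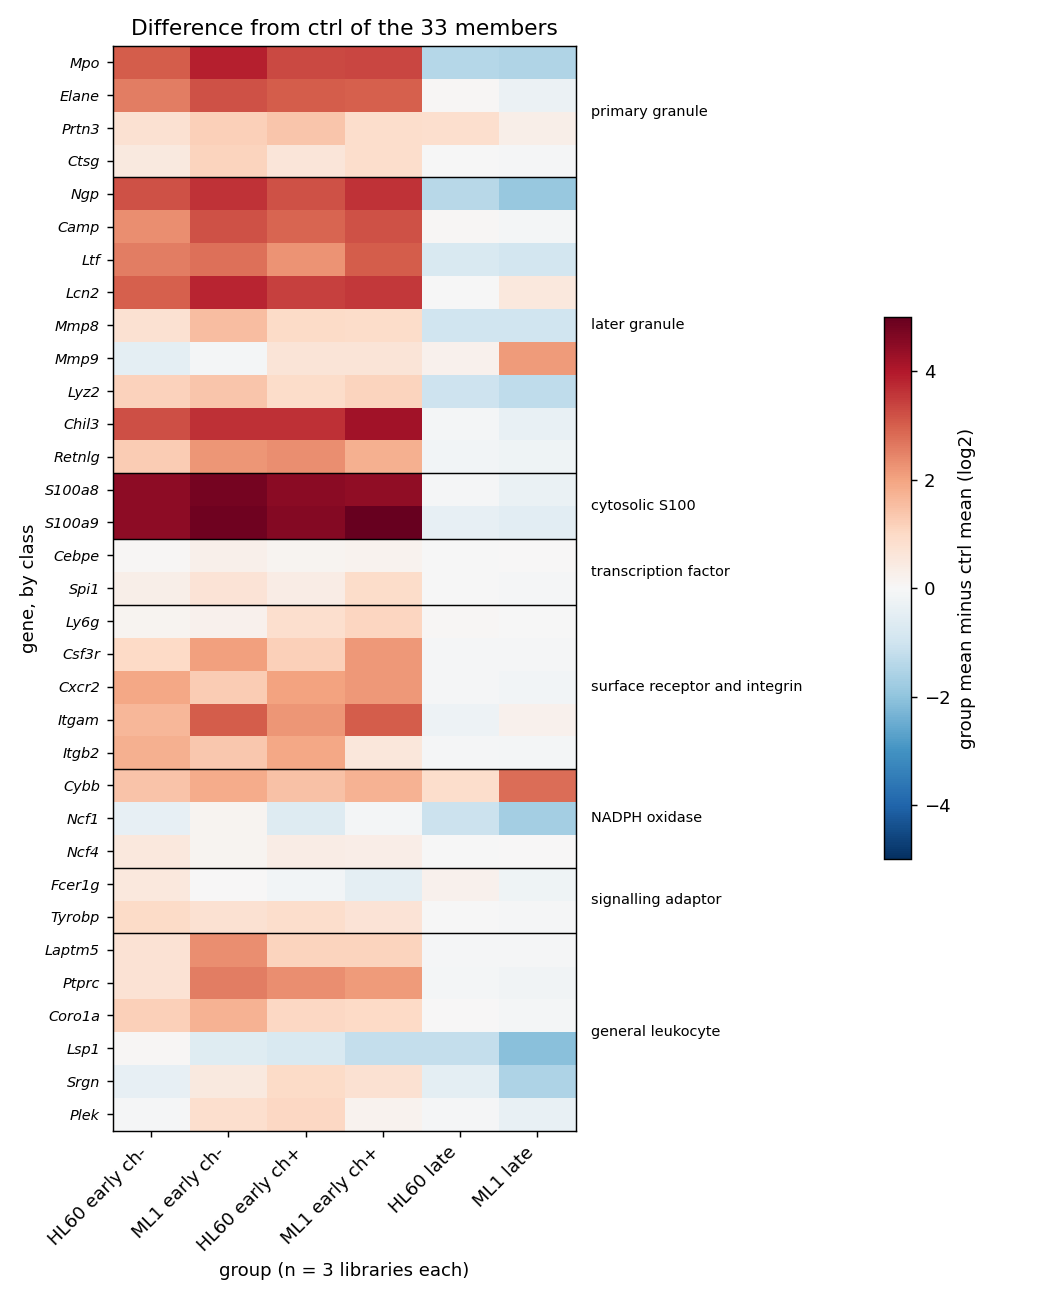
Group mean minus ctrl mean (colour, log2 scale) of the 33 members (vertical axis, by role) in the 6 engrafted groups (horizontal axis, 3 libraries each). S100a8 is at 4.47 in HL60 early ch- and 4.78 in ML1 early ch-, and Mmp9 and Cybb at 2.12 and 2.77 in ML1 late.

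Early ch+ and early ch- cells, compared to ask whether contact with AML cells goes with a change, differed in 1 of 33 members, Srgn, called higher in early ch+ beside 3.58% of all tested genes. The median over members was 0.00, against -0.02 over all tested genes. Srgn was higher by 0.84 (SE 0.27, adjusted p = 0.0795), and the call was lost without HL60 early ch- 527 (0.78, 0.154), 528 (0.82, 0.137) or 529 (0.64, 0.207), HL60 early ch+ 523 (0.81, 0.133), 524 (0.80, 0.142) or 525 (0.84, 0.111), or ML1 early ch+ 538 (0.83, 0.121) or 541 (0.86, 0.103), with no filter (0.84, 0.189), without the trend option (0.84, 0.11) and with ML1 and ctrl alone (0.31, 0.74). For the S100 and granule genes the intervals bound a difference on either side: S100a8 differed by -0.16 with a 95% interval from -0.72 to 0.40. Mpo differed by -0.13 (interval -1.02 to 0.76) and Camp by 0.27 (-0.36 to 0.90). Mmp9 differed by 0.94 (0.22 to 1.66, adjusted p = 0.151), and it was called with 7 groups (0.94, 0.016), with only these 2 stages (0.94, 0.0352), with equal library totals (1.09, 0.0786), with HL60 and ctrl alone (1.15, 0.0981), and without ML1 early ch+ 538 (1.09, 0.0968) or ML1 late 581 (0.94, 0.0945). A p that misses the threshold does not show that the fractions have equal levels.

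Late cells were compared with ctrl to ask what established leukemia changes. Here 2 of 33 members were called higher (Mmp9 and Cybb), where 10.2% of all tested genes were, and 7 lower (Mpo, Ngp, Mmp8, Lyz2, Ncf1, Lsp1 and Srgn), where 11.4% were. The 33 include 8 members not tested, and neither count is read as above or below the background. Among the 13 members that pass the filter without early values, 2 were higher and 6 lower. Several of the lower calls depend on a single ctrl library, as given below. The median over members was -0.07, against 0.02 over all tested genes. Ncf1 measured 7.15, 7.02 and 6.07 in HL60 late and 6.19, 5.82 and 6.35 in ML1 late, below all ctrl libraries, and fell by 1.38 (SE 0.30, adjusted p = 0.0011, 6 of 6). Lsp1 ran from 4.56 to 7.02 late and fell by 1.63 (SE 0.45, adjusted p = 0.00966), with its highest late value in HL60 late 399. Lyz2 fell by 1.16 (adjusted p = 0.0129), a call lost without ctrl 373 (-0.80, 0.154).

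The late calls of Mpo and Ngp rest on ctrl 375. Mpo fell by 1.46 (SE 0.53, adjusted p = 0.0609) and Ngp by 1.63 (SE 0.58, adjusted p = 0.0507), and without ctrl 375 their differences were -0.19 (adjusted p = 0.837) and -0.21 (adjusted p = 0.817). Both calls were also lost with no filter (adjusted p = 0.174 for Mpo, 0.166 for Ngp), with only these 2 stages (0.127, 0.134) and with HL60 and ctrl alone (0.222, 0.278), and that of Mpo with ML1 and ctrl alone (0.141). Mmp8 fell by 1.00 (adjusted p = 0.0538), with all 6 late libraries below ctrl, and was not called without ctrl 374 (-1.04, 0.11) or ctrl 375 (-0.79, 0.243) or with either line and ctrl alone (HL60 -0.99, 0.126; ML1 -1.01, 0.139). Srgn fell by 1.02 (adjusted p = 0.0336), a call lost without ctrl 374 (-0.90, 0.138) and with HL60 and ctrl alone (-0.49, 0.443). Ltf was not called, but it was without ctrl 374 (-1.14, 0.0907) and with only these 2 stages (-0.85, 0.0616). Without ctrl 375, 5 members in place of 9 were called late. In ctrl 375, 4 of 33 members were more than 1 log2 unit above the mean of the other ctrl libraries, the same number as in 373, while 0 were in 374. The matching shares of all tested genes were 6.38%, 5.51% and 5.23%. Those in 375 were all granule genes: Mpo (7.16, others 3.26 and 3.48), Ngp (7.85, others 3.56 and 3.63), Lcn2 (5.77, others 3.41 and 3.61) and Ltf (4.69, others 3.64 and 3.28). Those in 373 were Lyz2, Cybb, Lsp1 and Plek.

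Cybb and Mmp9 were the members called higher late. Cybb measured 4.97, 5.80 and 6.24 in HL60 late and 7.73, 7.14 and 7.86 in ML1 late, so ML1 late was apart from HL60 late. Cybb was higher by 1.82 than in ctrl (SE 0.54, adjusted p = 0.019), and not called without ctrl 375 (1.45, 0.137) or with HL60 and ctrl alone (0.87, 0.401). Mmp9 was higher by 1.16 (SE 0.43, adjusted p = 0.0634), and the call was lost without ctrl 373 (1.07, 0.178), ctrl 374 (1.13, 0.155), ML1 late 581 (0.87, 0.157), 582 (1.05, 0.122) or 583 (0.99, 0.136), with no filter (1.16, 0.191), without the trend option (1.16, 0.106), with only these 2 stages (1.16, 0.121) and with HL60 and ctrl alone (0.21, 0.814). Late library totals were lower than the others, with a summed normalized count of 7.26 to 9.02 (in units of 1e+06) against 11.9 to 14.2 in ctrl and 11.2 to 14.7 early. Rescaling libraries to the same total moved the median of all tested genes late against ctrl by 0.69, to 0.71, and the members called then were 5 higher (Prtn3, Lcn2, Mmp9, Cybb and Fcer1g), where 60% of all tested genes were, and 2 lower, where 3.97% were, with Ncf1 at -0.69 and Lsp1 at -0.94 among the lower ones and Mpo, Ngp, Mmp8, Lyz2 and Srgn no longer called.

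Late against the early fractions, 20 of 33 members were lower than in early ch+ and 0 higher, where 10.9% of all tested genes were lower and 8.79% higher. Against early ch-, 20 of 33 were lower, where 12.3% were, and 1 higher (Mmp9), where 10.2% were. In each comparison 12 of the 20 lower members had passed the filter only through their early values and had to differ, and among the 13 members that pass without them 8 were lower. Mmp9 was called higher late than in early ch+ with ML1 and ctrl alone (1.49, adjusted p = 0.00148) and with equal library totals (1.13, 0.0108). The medians over members were -1.74 and -1.59, against 0.02 and 0.00 over all tested genes. Ngp fell by 5.02 from early ch+ to late (SE 0.47, adjusted p = 4.07e-09), Mpo by 4.78 (SE 0.44, adjusted p = 2.48e-09) and Chil3 by 4.16 (SE 0.35, adjusted p = 3.70e-10), with all 6 late libraries below all early ch+ libraries in each. Ptprc fell by 2.36 (SE 0.41, adjusted p = 7.07e-05, 6 of 6). Chil3 and Ptprc are among the 12 that had to differ, so their p-values cannot be read as a test of the late fall. Plek fell by 0.82 (adjusted p = 0.0898), and the call was lost without HL60 early ch+ 523 (-0.67, 0.206) or 524 (-0.64, 0.226), HL60 late 399 (-0.71, 0.19), or ML1 late 581 (-0.75, 0.176), 582 (-0.80, 0.142) or 583 (-0.82, 0.133), with no filter (-0.82, 0.158) or with HL60 (-1.08, 0.198) or ML1 (-0.56, 0.494) and ctrl alone, or with equal library totals (-0.20, 0.576). Ncf1 was lower late than in early ch+ (-1.01, adjusted p = 0.00303) and early ch- (-1.24, adjusted p = 0.000328), calls lost with HL60 and ctrl alone (-0.43, adjusted p = 0.555, against early ch+ and -0.64, 0.269, against early ch-) and, against early ch+, with equal library totals (-0.40, 0.132). Against early ch-, the calls of Srgn and Lsp1 were lost with equal library totals (-0.28, 0.32, and -0.60, 0.132), and that of Srgn with HL60 and ctrl alone (-0.07, 0.95). Lsp1, not called against early ch+, was without HL60 late 399 (-0.92, 0.0864). With no filter, Ly6g (-0.95), Laptm5 (-1.15) and Coro1a (-1.05) were also lower late than in early ch+ (background 5.3%), and Ctsg (-0.85), Tyrobp (-0.89), Laptm5 (-1.57) and Coro1a (-1.49) lower than in early ch- (background 11.9%). Under equal library totals the median of all tested genes became 0.63 and 0.77, and 18 members were lower in each comparison, where 4.53% and 3.65% of all tested genes were, with 2 and 3 higher, where 65% and 74.6% were. Mmp9, higher late than in early ch- by 1.46 (SE 0.35, adjusted p = 0.00303), overlapped between these stages through HL60 late 398 (7.04) alone, and was not called with HL60 and ctrl alone (0.69, 0.287).

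HL60 and ML1 apart, the early rise appeared in both lines. HL60 early ch+ had 15 members called higher than ctrl (2.87% of all tested genes) and ML1 early ch+ 16 (3.47%). HL60 early ch- had 11 (0.894%) and ML1 early ch- 17 (1.42%). Of these, 10, 10, 7 and 11 had passed the filter only through their early values and cannot be read against the percentages; among the 13 others the counts were 5, 6, 4 and 6. S100a8 measured 7.88, 7.78 and 7.79 in HL60 early ch- and 7.42, 8.28 and 8.67 in ML1 early ch-. Its HL60 early ch- difference of 4.47 (adjusted p = 2.92e-08, 3 of 3) stood beside 4.78 in ML1 (adjusted p = 6.03e-09, 3 of 3), and S100a8 is among the members that passed only through their early values. Tested against each other by limma, the lines differed in 0 of 33 members in early ch+ (background 0.0154%; 2 members and 7.61% of all tested genes at an unadjusted p below 0.05) and in 0 in early ch- (background 0.0539%; 5 members and 6.82% of all tested genes at an unadjusted p below 0.05). A difference of lines was called in early ch- for 1 member when HL60 early ch- 529 or ML1 early ch- 544 was left out.

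Within HL60, early ch+ against early ch- had 3 members called higher, Mmp9, Ptprc and Srgn, where 2.27% of all tested genes were. Srgn was higher by 1.37 (SE 0.30, adjusted p = 0.00641), with all 3 early ch+ libraries (8.12, 8.17 and 7.97) above the early ch- ones (6.87, 7.10 and 6.19). Mmp9 was higher by 1.15 (adjusted p = 0.0769, 3 of 3 libraries) and Ptprc by 1.59 (adjusted p = 0.0753). Leaving out HL60 early ch- 528 or HL60 early ch+ 523 left 1 member called. In ML1 limma called 0 members, where 4.25% of all tested genes changed in either direction (2 members and 13.8% of all tested genes at an unadjusted p below 0.05). Whether the fractions differ by line was tested by an interaction, in which 0 of 25 tested members were called (4 members and 6.4% of all tested genes at an unadjusted p below 0.05, lowest adjusted p 0.66).

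Late, HL60 had 2 members called lower than ctrl, Lyz2 (-1.04, adjusted p = 0.0828) and Ncf1 (-1.07, adjusted p = 0.0193), where 7.24% of all tested genes were lower. The number was 1 without HL60 late 397 or 399 and 5 without ctrl 374. ML1 had 2 called higher (Mmp9 and Cybb, background 9.89%) and 7 lower (background 12.1%), and 5 in all without ML1 late 581. Mmp9 was higher in ML1 late by 2.12 (SE 0.35, adjusted p = 2.74e-05, 3 of 3) and Cybb by 2.77 (SE 0.52, adjusted p = 0.000189, 3 of 3). The lines differed late in 3 members: HL60 minus ML1 was -1.92 for Mmp9 (SE 0.35, adjusted p = 0.000528) and -1.91 for Cybb (SE 0.52, adjusted p = 0.0367), where 0.932% of all tested genes were lower. It was 1.05 for Srgn (SE 0.30, adjusted p = 0.0509), where 3.16% were higher. Each of these was apart in all 3 libraries of a line. The number was 1 without HL60 late 397, ML1 late 581 or ML1 late 583.

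Other genes of the same cells were taken from lists of known markers, whose counts stand beside the same shares of all tested genes (3.41% higher in early ch+, 1.13% in early ch-, 10.2% higher and 11.4% lower late against ctrl). Further shares are 0.786% lower in early ch- against ctrl and 3.58% higher in early ch+ against early ch-. Late, 10.9% were lower than in early ch+ and 12.3% lower than in early ch-. Of 30 other neutrophil granule and maturation genes, 28 were in the table and 7 tested, with 4 higher in early ch+, 3 higher in early ch- (2 in each through a filter passed only by early values), and 3 higher and 1 lower late. Cd177, a neutrophil surface protein, averaged 2.95 in ctrl, 5.04 in early ch-, 5.35 in early ch+ and 3.14 late. Of the 7, 4 were lower and 1 higher late than in early ch+, and 3 lower and 3 higher than in early ch-. In each, 2 of the lower ones passed through such a filter, and 8.79% and 10.2% of all tested genes were higher. The summed normalized count of the list had a median of 1980 in ctrl, 2487 in early ch-, 4028 in early ch+ and 4422 late. The highest values in the list were those of Hp (up to 11.51) and Anxa1 (up to 11.32), so the sum rests mostly on them and does not describe the list. Ctsc, the protease that activates granule proteases, averaged 7.28 in ctrl, 8.05 in early ch-, 7.72 in early ch+ and 9.24 late, and 17 of the 28 genes were under the filter in every library. Of 18 other NADPH oxidase and phagocyte signalling genes, 8 were tested, with 2 higher in early ch+, 1 in early ch- (1 in each through such a filter), and 1 higher and 2 lower late. Of 25 other pan-leukocyte genes, 8 were tested, with 1 higher in early ch+ and in early ch-, through such a filter, and 1 higher and 1 lower late. Lcp1, an actin bundler of leukocytes, fell by 1.70 late (adjusted p = 0.000229).

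Of 15 red cell markers, 14 were in the table and 12 tested, with 11 higher in early ch+ (3.41% of all tested genes), 10 in early ch- (1.13%), and 6 lower late against ctrl (11.4%), and medians of 2.13, 2.40 and -0.53. Of the 12, 4 passed the filter only through their early values, and of the other 8, 7 were higher in early ch+ and 7 in early ch-. Late, 12 were lower than in early ch+ (10.9% of all tested genes) and 11 lower than in early ch- (12.3%). Their summed normalized count was 499, 588 and 1030 in ctrl from lowest to highest, 5529 over a median of 8205 to 10720 in early ch-, 4747 over 8979 to 13519 in early ch+ and 187 over 268 to 318 late. Hbb-bs, a beta globin and the most abundant, averaged 7.59 in ctrl, 11.71 in early ch-, 11.81 in early ch+ and 4.64 late, and 1 of the 14 was under the filter in every library. The sort stained for Ter119 and CD45, which mark red cells and leukocytes, and how many such cells remained was not measured here. The part of such cells in the members' result was not tested.

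Of 18 monocyte and macrophage markers, 17 were in the table and 6 tested, with limma calling 0 in early ch+ (3 at an unadjusted p below 0.05) and 1 lower in early ch- (0.786% of all tested genes). In early ch+ against early ch-, 2 were higher (3.58%). Late, 2 were higher (10.2%) and 2 lower (11.4%) than in ctrl, 3 lower than in early ch+ (10.9%) and 1 lower than in early ch- (12.3%). Of the 17, 9 were under the filter in every library and 8 above it in at least 1. Named after their values were seen, C1qa ran from -1.49 to -1.38, Cx3cr1 from -1.27 to -1.24 and Adgre1 from 0.33 to 1.14 over the 21 libraries, whereas Csf1r reached 3.69, Cd68 4.15, Cd163 4.51, Mpeg1 5.71, Ly6c2 5.72, Cd14 6.82 and Mrc1 6.88. The summed normalized count of the list ran from 1495 to 2648 in ctrl, 529 to 697 in early ch-, 3207 to 4628 in early ch+ and 144 to 581 late. F13a1, the most abundant of the list, averaged 10.96 in ctrl, 8.74 in early ch-, 11.82 in early ch+ and 7.34 late. No other gene of the list exceeded 6.88, so in ctrl and both early fractions the sum is mostly F13a1 and does not describe the list.

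All 9 T and NK cell markers in the table, of 12, and all 9 eosinophil, basophil and mast cell markers, of 11, were under the filter in every library, as were 6 of 7 B cell markers. The tested B cell marker was lower late than in ctrl. In early ch+ limma called 0 of 3 tested osteoclast markers (2 at an unadjusted p below 0.05), of which 1 was lower in early ch- and 1 lower late against ctrl, and 0 of 2 megakaryocyte and platelet, 0 of 5 stem and progenitor and 0 of 8 endothelial markers (0 at an unadjusted p below 0.05 in each). Of the endothelial markers, 4 were lower late than in early ch+ (10.9% of all tested genes) and 1 lower than in early ch- (12.3%). Of 10 tested proliferation genes, 1 was higher in early ch+ and, by limma, 0 in early ch- (1 at an unadjusted p below 0.05). Late, 3 were lower than in ctrl (11.4% of all tested genes), 5 lower than in early ch+ (10.9%) and 4 lower than in early ch- (12.3%). Of 13 mesenchymal stromal markers, all tested, 6 were higher in early ch+, 1 in early ch-, and 8 higher and 3 lower late against ctrl. Col1a1 and Col1a2, the most abundant, fell by 2.92 (SE 0.45, adjusted p = 1.99e-05) and 2.72 (SE 0.41, adjusted p = 1.17e-05) late against ctrl, while Cxcl12 averaged 15.19 in ctrl and 16.17 late and Lepr 12.60 and 14.57. The summed normalized count of the list ran from 1842565 to 2480154 in ctrl, 1574476 to 2124411 in early ch-, 1399332 to 1675714 in early ch+, 673545 to 850608 in HL60 late and 223877 to 281048 in ML1 late. No gene of the list other than Col1a1 (up to 20.58) and Col1a2 (up to 19.70) exceeded 16.44. In ctrl and early libraries the sum is therefore mostly these collagen genes and does not describe the list.

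**Figure D3:**
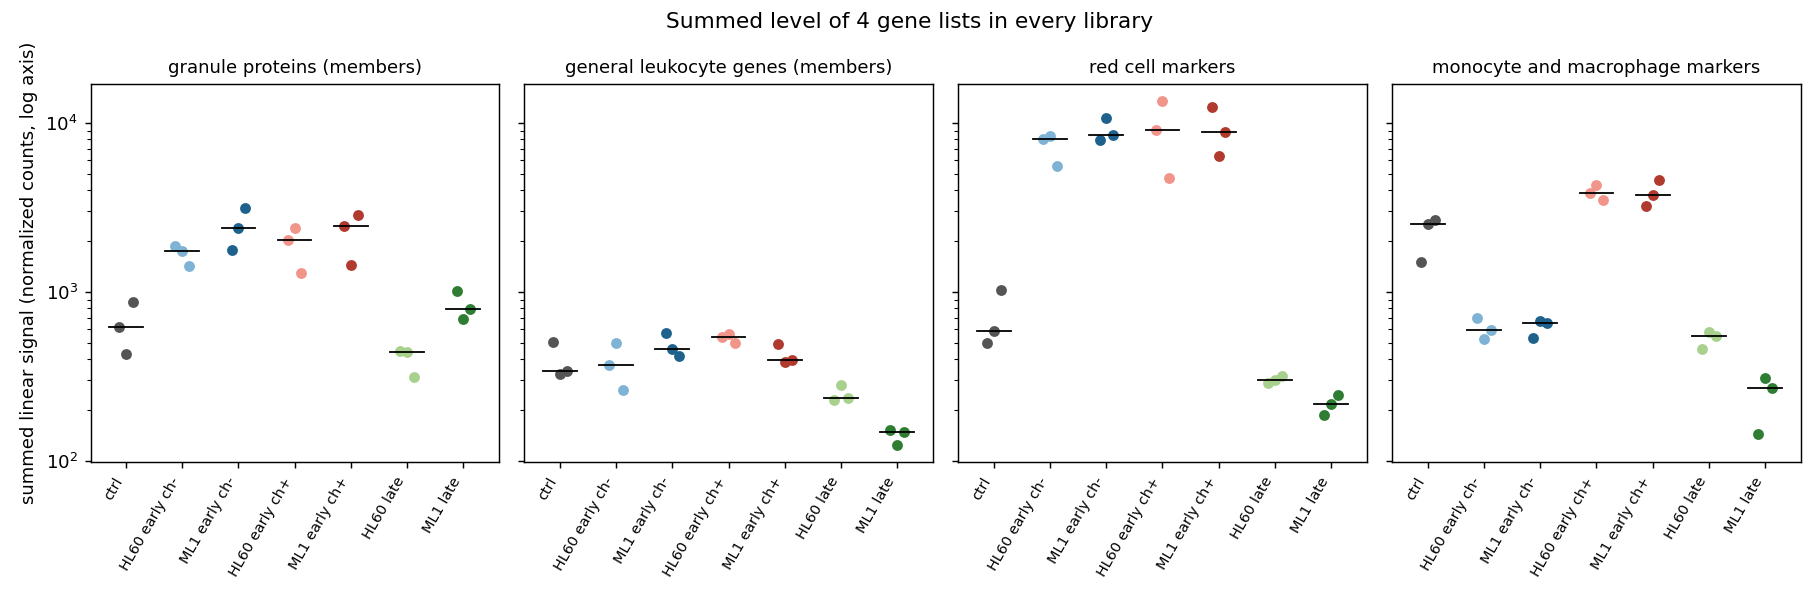
Summed normalized count per library (vertical axis, log scale) of granule members, general leukocyte members, red cell markers and monocyte and macrophage markers by group (horizontal axis), each point a library and each line a group median. Red cell markers reach 13519 in early ch+ and lie at 187 to 318 late. In ctrl and both early fractions the monocyte and macrophage sum is mostly F13a1. The granule sum of ML1 late (688 to 1006) is mostly Mmp9.

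The genes most like the granule members over the 21 libraries, by Pearson's r with the mean of the tested granule members among 12868 tested genes that are neither members nor in the marker lists above, were Ctse (0.97), ENSMUSG00000089672 (0.92, no symbol), mt-Rnr1 (0.91), mt-Co3 (0.91), Sptb (0.90), mt-Nd5 (0.90), Ermap (0.89), Ucp2 (0.89), mt-Nd4 (0.89) and mt-Cytb (0.88). Sptb and Ermap are red cell genes, and 5 of the 10 are transcribed from the mitochondrial genome. The libraries fall into a low and a high set, so r mainly describes that division. Ctse averaged 4.40 in ctrl, 6.92 in early ch-, 6.89 in early ch+ and 3.03 late. With each granule member set against the mean of the other granule members, S100a9 (0.98), S100a8 (0.98) and Ltf (0.97) had the highest r, and Cybb (0.18), Fcer1g (0.01) and Mmp9 (-0.38) the lowest.

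Promoters of 3 members that rose early are shown because these genes moved together and their windows end at the annotated gene start. They are the 150 bases before the start in RefSeq GRCm38.p6, in which 26 of the 33 members were matched, read 5′ to 3′ on the gene's strand, with capitals for the letters TTNNGNAA (C/EBP) and GAGGAA (PU.1) on either strand, which do not overlap each other in these windows. S100a9 is at chr3:90695722-90695871 on the minus strand, Chil3 at chr3:106167565-106167714 on the minus strand and Itgam at chr7:128062490-128062639 on the plus strand.
S100a9: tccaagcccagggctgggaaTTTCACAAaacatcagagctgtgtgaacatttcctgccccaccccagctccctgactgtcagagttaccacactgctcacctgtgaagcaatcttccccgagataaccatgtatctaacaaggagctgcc
Chil3: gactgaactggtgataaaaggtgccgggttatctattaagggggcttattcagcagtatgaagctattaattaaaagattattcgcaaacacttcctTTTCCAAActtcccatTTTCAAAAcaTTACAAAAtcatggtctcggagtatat
Itgam: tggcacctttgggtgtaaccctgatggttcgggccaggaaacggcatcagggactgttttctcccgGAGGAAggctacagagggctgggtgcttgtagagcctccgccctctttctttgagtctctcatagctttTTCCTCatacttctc
The C/EBP letters were in 11 of 30 member windows and in 22.7% of 32851 promoter windows of the same length, and the PU.1 letters in 11 of 30 and in 14.5%. A match is a description of letters, and binding was not measured.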

How the data were processed

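The deposited table holds regularized log2 normalized counts that the authors made with STAR 2.5.1b on mm10, RSEM 1.2.29 and DESeq2 1.10.1, from low-input amplified cDNA of 21 Nes-low libraries. Values entered as deposited. Genes with a mean of at least log2 10 (12976 of 26852) were fitted by limma 3.58.1 (R 4.3.3) with the trend option, once by 4 stages and once by 7 groups. The two-sided moderated tests were adjusted by Benjamini-Hochberg over all tested genes and called at an adjusted p below 0.1. The procedure was tested on simulated data. The members and lists were chosen with earlier results of these data known. All members were named, and the 10 genes most like the granule mean. From the other lists only some genes were named, not always those with the highest values (more monocyte markers after their values were seen). Alternatives covered the filter, 2 other scalings, limma options, the lines apart, stricter thresholds and leaving out each library. Summed normalized counts are sums of 2 to the power of the values. Promoters come from RefSeq. Without read counts, no counting error could be given.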

Additional observations from a re-analysis of the deposited data

Results flagged for a closer look

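In 99 groups of 6 libraries, 11 had a library apart from the others by a ratio above Dixon's critical value, where 4.95 would be flagged by chance at 1 in 20. In early ch-, ML1 library 546 was high for Ltf (7.50) and Ly6g (2.24), ML1 library 544 high for Cebpe (1.04), and HL60 library 528 low for Mmp9 (6.03). Late, HL60 library 397 was high for Ngp (4.19), HL60 library 399 low for Lcn2 (3.44), HL60 library 398 high for Ly6g (1.90) and Coro1a (2.47), ML1 library 583 high for Itgam (4.50), and ML1 library 582 high for Cebpe (0.34) and Ncf4 (1.63). Cebpe, Ly6g, Ncf4 and Coro1a are under the filter, where the gap to the next library can be as small as 0.04 for Cebpe late. HL60 minus ML1 was called late for Cybb (-1.91, adjusted p = 0.0367), Mmp9 (-1.92, adjusted p = 0.000528) and Srgn (1.05, adjusted p = 0.0509).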

How the results depend on the processing

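Of 4980 member values compared over 34 settings, 4806 kept their direction and side of the threshold, 127 were no longer called, 45 were newly called and 2 reversed. The reversed values are Fcer1g with equal library totals, late against ctrl (0.69, adjusted p = 0.0688) and late against early ch- (0.49, adjusted p = 0.0914). This rescaling moved the median of all tested genes by 0.69 and 0.77 in these comparisons, so the reversals are not particular to Fcer1g. With a mean of at least 50 normalized counts, where fewer members are tested, the members called were 7 in early ch+ against ctrl, 6 in early ch- against ctrl, 9 in late against early ch+ and 10 in late against early ch-. Late against ctrl gave 3 with HL60 and ctrl alone and 5 at an adjusted p below 0.05. Early ch+ against early ch- gave 2 with equal totals, with only these stages, with 7 groups and with HL60 alone, and 0 without trend, with ML1 alone, at an adjusted p below 0.05 and with a log2 difference of at least 1. At an adjusted p below 0.05, HL60 late against ctrl gave 1 and HL60 early ch+ against early ch- gave 1. Leaving out each library gave 14 to 19 for early ch+ against ctrl, 10 to 16 for early ch- against ctrl (10 without ctrl 374), 5 to 9 for late against ctrl (5 without ctrl 375), 0 to 2 for early ch+ against early ch-, 18 to 20 for late against early ch+ and 20 to 21 for late against early ch-. In HL60 it gave 12 to 16 for early ch+, 8 to 11 for early ch- and 1 to 5 for late against ctrl, and 1 to 4 for early ch+ against early ch-. In ML1 it gave 14 to 17, 13 to 17, 5 to 9 and 0 to 0 in the same order. HL60 against ML1 gave 0 to 0 in early ch+, 0 to 1 in early ch- and 1 to 3 late. Apart from fewer genes or libraries, the cause was not tested. Read totals per library were not used here.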
